A study of Mus musculus with 20 samples.

Results

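The subunits of oxidative phosphorylation were followed in the hypothalamus of obese mice given celastrol or its vehicle. Members were chosen by gene symbol: every probe set with a single symbol of the Nduf (letters a, b, c, s and v followed by a digit), Sdh (a to d), Uqcr, Cox (4 to 8) or Atp5 series was taken, and the brightest probe set over all 20 arrays stood for the gene. This gave 81 of the 18704 genes with a single-symbol probe set, from 105 of 23492 probe sets. They were 35 genes of complex I, 4 of complex II, 8 of complex III, 17 of complex IV and 17 of complex V, and 79 of the 81 were bright enough to be tested. The exceptions were Cox7b2 (mean log2 intensity 6.10) and Cox8b (6.98), below the limit of 7.04. The symbols also took in Ndufa4l2 and Cox7a2l, which are not established core subunits, and Ndufa4, which is now counted with complex IV but was kept in complex I here.

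All mice were male C57BL/6J animals that received a diet with 45% fat from 4 weeks of age, for 16 weeks, so the vehicle animals were obese too and no lean group entered the comparison. Celastrol, a plant triterpenoid known for lowering food intake in obese mice, was injected intraperitoneally, and control mice received its solvent, dimethyl sulfoxide (DMSO). Hypothalamic RNA was hybridised to Affymetrix Mouse Gene 1.0 ST arrays. Each DMSO group (6 h, 1 day, 4 days) had 3 arrays; the celastrol groups had 4 (6 h), 4 (1 day) and 3 (4 days). The labels give 25 µl of DMSO per day for both treatments, and a celastrol dose of 250 µg/kg beside the 6 h time only. Replicates are labelled biological, without a word on whether animals were pooled. Arrays are named below by treatment, time and replicate number.

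Complex I (NADH dehydrogenase) and complex II (succinate dehydrogenase) pass electrons to ubiquinone, complex III (the cytochrome bc1 complex) passes them on to cytochrome c, and complex IV (cytochrome c oxidase) to oxygen. Complexes I, III and IV pump protons as they do so, and complex V (ATP synthase) uses the gradient to make ATP, on which neurons depend for ion pumping and synaptic transmission. The genes measured are encoded in the nucleus. Many of their promoters are known to bind nuclear respiratory factor 1 (NRF1), GABP of the ETS family (also called NRF2) and YY1, which are taken to keep subunit transcription in step.

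Apart from the array values, promoter windows of the members were compared with all promoter windows. Each of the 4 motifs below stood in a minority of the members. RefSeq windows from 250 bases before to 50 bases after the start of transcription (assembly GRCm38.p6) were matched for 66 of the 81 genes, in 71 windows. The letters GCATGCGC, a core of the NRF1 site, stood on either strand in 14.1% of these windows and in 2.71% of all 32851 windows. The ETS letters CCGGAAG stood in 23.9% against 8.86%, the YY1 letters AAGATGGC in 14.1% against 2.75%, and the TATA box letters TATAAA in 12.7% against 13.6%. A match describes letters only and is not a bound site. The last 150 bases before the start are shown for 1 gene of each complex with an NRF1 or ETS match there, and for Ndufb11, which had none of the 4 motifs in its window and the smallest treatment p of any member. Each runs 5′ to 3′ on the gene's strand, with the matched letters in capitals. In Sdhd, Uqcrh and Cox6a1 the capitals mark the ETS letters on the opposite strand, in Ndufa8 the NRF1 letters, and in Atp5g2 the NRF1 letters on both strands, which overlap.
Ndufa8 (chr2:36049339-36049488, minus strand): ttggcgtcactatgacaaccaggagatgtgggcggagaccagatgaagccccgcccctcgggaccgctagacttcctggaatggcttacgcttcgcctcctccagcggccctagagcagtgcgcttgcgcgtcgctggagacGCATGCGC
Sdhd (chr9:50603850-50603999, minus strand): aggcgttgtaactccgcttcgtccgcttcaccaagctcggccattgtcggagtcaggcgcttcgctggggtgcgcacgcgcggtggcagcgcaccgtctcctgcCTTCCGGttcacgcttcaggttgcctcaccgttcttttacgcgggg
Uqcrh (chr4:116075071-116075220, minus strand): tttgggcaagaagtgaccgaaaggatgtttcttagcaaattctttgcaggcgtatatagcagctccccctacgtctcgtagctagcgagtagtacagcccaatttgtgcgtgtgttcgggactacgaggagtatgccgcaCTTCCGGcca
Cox6a1 (chr5:115348959-115349108, minus strand): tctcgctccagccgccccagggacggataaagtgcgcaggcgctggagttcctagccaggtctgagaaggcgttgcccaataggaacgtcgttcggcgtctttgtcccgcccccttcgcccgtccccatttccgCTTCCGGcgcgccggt
Atp5g2 (chr15:102671048-102671197, minus strand): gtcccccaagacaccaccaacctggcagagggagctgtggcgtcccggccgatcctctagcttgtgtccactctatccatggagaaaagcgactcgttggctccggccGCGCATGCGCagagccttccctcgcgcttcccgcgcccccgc
Ndufb11 (chrX:20617620-20617769, minus strand): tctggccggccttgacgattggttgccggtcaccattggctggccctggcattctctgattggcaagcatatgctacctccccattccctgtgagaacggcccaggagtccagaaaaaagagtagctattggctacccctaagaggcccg

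The treatment differences of genes with and without these letters are given as a description. At 1 day the median celastrol minus DMSO difference was 0.051 (log2) for the 10 tested genes with the NRF1 letters and 0.0089 for the 54 without. For the ETS letters the medians at 1 day were 0.019 in 17 genes and 0.016 in 47. For the YY1 letters they were -0.035 in 10 genes and 0.021 in 54. For the TATA box letters the 1 day medians were -0.037 in 6 genes and 0.021 in 58. With and without the NRF1 letters the medians were 0.0065 and -0.0127 at 6 h, and -0.0355 and -0.0254 at 4 days. For YY1 they were -0.0002 and -0.0145, then -0.0309 and -0.0249. For ETS they were -0.008 and -0.0142, then -0.0238 and -0.0261. For TATA they were -0.00585 and -0.0129, then -0.0513 and -0.0244. No difference between these medians was tested.

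All 11 hypothalamic marker genes on the array were above the intensity limit, from Crh (mean log2 7.21) to Pmch (12.94). After removing group means, the leading component scored 11.43 for DMSO 6 h replicate 3 and 9.61 for DMSO 1 day replicate 3, and between -6.13 and 5.32 for the remaining arrays. Without this pair of arrays the median difference of the members moved from -0.0061 to 0.022 at 6 h and from 0.016 to 0.027 at 1 day, with no member called. The 6 h medians of complexes I, III, IV and V were then 0.015, 0.043, 0.029 and 0.039. At 6 h the 8 thalamus markers were all lower with celastrol (median -0.31, 7 at an unadjusted limma p under 0.05, where 7.55% of all genes were). The mean of these markers ran in the DMSO 6 h arrays from 9.86 to 10.41 against 9.75 to 9.91 with celastrol. At 1 day 7 of 9 astrocyte markers were lower (median -0.058, 1 past the threshold), with array means from 11.38 to 11.41 with celastrol and 11.43 to 11.50 with DMSO. At that time 6 of 9 ependymal and tanycyte markers were higher (median 0.076, 1 past the threshold), with array means from 8.82 to 8.85 against 8.71 to 8.79. The single blood marker of 9 above the limit read 8.49 to 8.90 with celastrol and 8.32 to 8.46 with DMSO at 1 day. At 4 days it was lower with celastrol (difference -0.289), at 7.96 to 8.22 against 8.19 to 8.54, which overlapped. Of 10 oligodendrocyte markers 7 were lower at 1 day (median -0.082, 1 past the threshold, arrays overlapping) and 9 at 4 days (median -0.12, 1 past the threshold), when array means ran from 11.16 to 11.35 with celastrol and 11.36 to 11.47 with DMSO. Of all genes, 0.425% passed at 1 day and 0.0637% at 4 days. Array means of neuron, microglia, endothelial, pericyte and pituitary markers overlapped at each time. Of 12 neuron markers 9 were lower with celastrol at 6 h, 10 at 1 day and 9 at 4 days (medians -0.025, -0.034 and -0.023), and none passed. At 4 days 4 of 7 microglia markers were higher (median 0.14), and 4 had an unadjusted limma p under 0.05, beside 6.53% of all genes. At 6 h 4 of 8 pericyte and smooth muscle markers did, beside 7.55%. At 1 day 1 of 7 endothelial markers passed as lower, and all 4 pituitary markers were lower (median -0.32). The part of these marker lists in the results below was not tested. In whole tissue, fewer cells of a type and less RNA per cell cannot be told apart.

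With celastrol the subunit transcripts lay close to their vehicle level at every time. None of the 79 tested members passed the threshold, an adjusted p of 0.05 in limma's moderated test over all 14129 genes, at 6 h, 1 day or 4 days. Of all genes tested, 0%, 0.425% and 0.0637% passed at these times, so a count of 0 among 79 is near the background. The members' differences lay between -0.14 and 0.19 at 6 h, -0.17 and 0.13 at 1 day, and -0.15 and 0.13 at 4 days on the log2 scale. The smallest adjusted p of a member was 0.658 at 6 h, 0.348 at 1 day and 0.748 at 4 days.

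The intervals were narrow enough to bound the changes. The 95% interval of the difference lay within 1.25-fold in either direction for 77 of 79 members at 6 h, 76 at 1 day and 76 at 4 days, or 97.5%, 96.2% and 96.2%, against 91.5%, 91.3% and 91.2% of all genes. It lay within 1.5-fold for all 79 at each time. The members whose interval passed 1.25-fold were Ndufa4l2 and Ndufs6 at 6 h, Ndufa1, Ndufs6 and Uqcr11 at 1 day, and Cox8c, Ndufa1 and Uqcr10 at 4 days. At an unadjusted p under 0.05 stood 1 member at 6 h, 1 at 1 day and 2 at 4 days, where 7.55%, 8.19% and 6.53% of all genes did. Celastrol and DMSO arrays did not overlap for 0, 4 and 9 members, or 0%, 5.06% and 11.4%, against 6.35%, 7.81% and 14.4% of all genes.

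**Figure D1:**
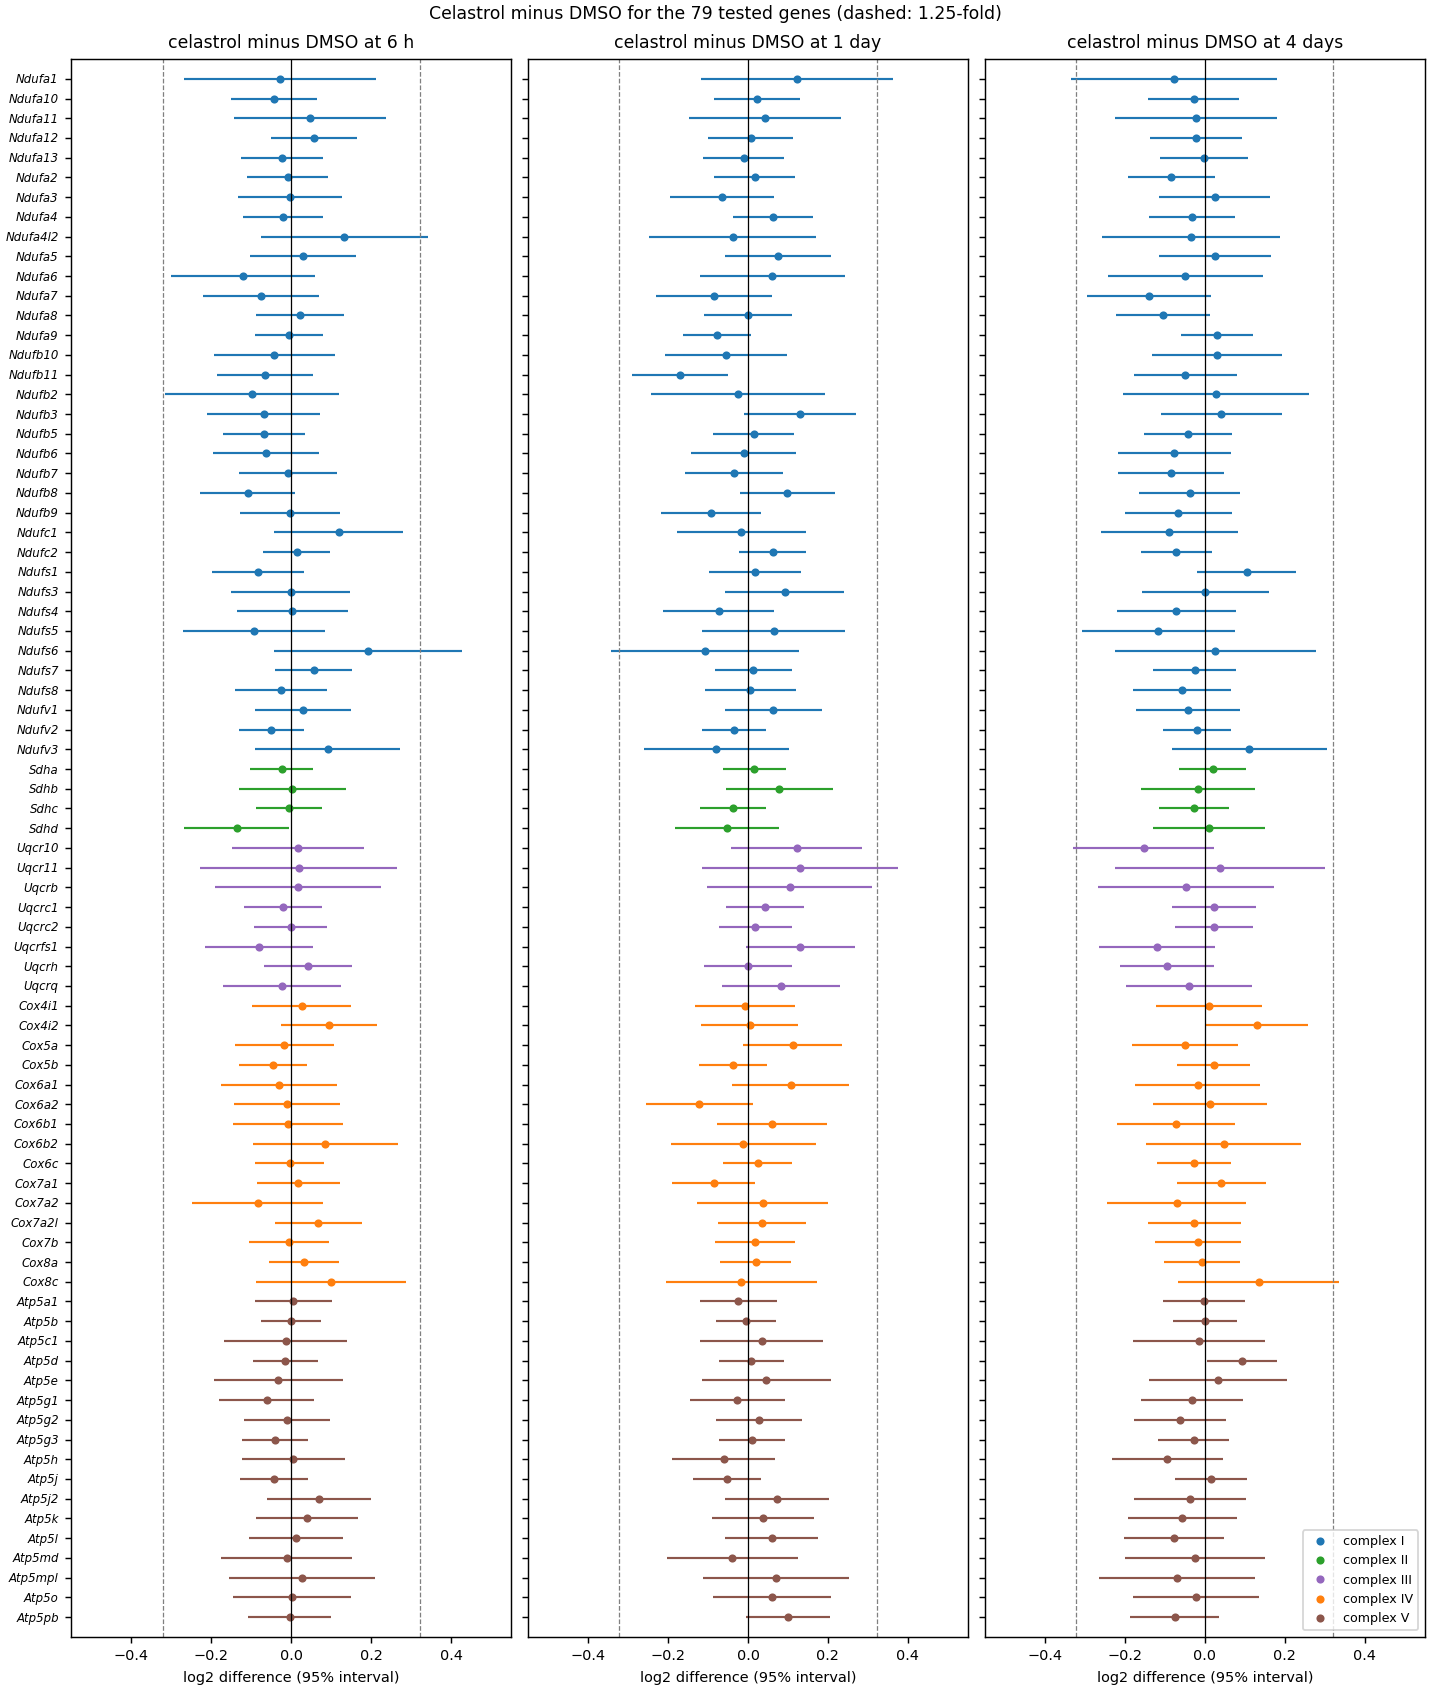
Celastrol minus DMSO (log2 difference, points) with 95% intervals (lines) for the 79 tested genes at 6 h, 1 day and 4 days, coloured by complex. Most intervals cross 0 and lie between the dashed lines at 1.25-fold, and at 1 day all 8 complex III points lie at or above 0.

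The members' median difference was -0.0061 at 6 h, with 31 genes higher and 48 lower, beside -0.015 for all genes. At 1 day it was 0.016, with 49 higher and 30 lower, beside 0.0063. At 4 days it was -0.026, with 26 higher and 53 lower, beside 0.0075. These shifts are smaller than the spread between arrays: the mean over the 79 members had a pooled within-group SD of 0.038, and the group means differed by -0.0047, 0.014 and -0.022. The array means of celastrol and DMSO overlapped at all 3 times.

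Complex I, the largest, oxidises NADH through a peripheral arm, whose catalytic subunits are among the Ndufs and Ndufv genes. It is held together by many accessory subunits, mainly of the Ndufa, Ndufb and Ndufc series. At 6 h 12 of its 35 genes were higher and 23 lower (median -0.0089), at 1 day 19 and 16 (0.0058), and at 4 days 10 and 25 (-0.034). Array means of the complex overlapped at each time, at 10.74 ± 0.034 (SD, n = 4) with celastrol and 10.75 ± 0.073 (SD, n = 3) with DMSO at 6 h.

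The smallest treatment p of any member at a single time belonged to Ndufb11, an accessory subunit of the membrane arm. At 1 day its DMSO arrays read 12.21, 12.23 and 12.14 and its celastrol arrays 12.02, 12.09, 11.93 and 12.05. The celastrol arrays were all lower, by 0.17 ± 0.057 on the log2 scale (SE), or 1.13-fold. The 95% interval was -0.29 to -0.05, and limma's adjusted p was 0.348 (unadjusted 0.00805). At 6 h the DMSO arrays averaged 12.13 ± 0.118 (SD, n = 3) and the celastrol arrays 12.07 ± 0.0789 (SD, n = 4), and at 4 days the single arrays read 12.19, 12.12 and 12.07 against 12.10, 12.02 and 12.12. The groups overlapped at both of these times. Without both DMSO arrays that stood apart the 1 day difference was -0.198. A dimmer probe set of Ndufb11 gave -0.096 at 1 day, in the same direction.

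Ndufb3, another accessory subunit of the membrane arm, went the other way at 1 day. It read 8.66, 8.72 and 8.65 with DMSO and 8.97, 8.79, 8.75 and 8.73 with celastrol. These groups did not overlap, and the difference of 0.13 ± 0.067 did not pass (limma adjusted p = 0.640). Ndufa9, an accessory subunit at the junction of the arms, differed by -0.077 ± 0.041 at 1 day (limma adjusted p = 0.648). Complex I therefore held genes on both sides at the same time.

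At 6 h the complex I genes nearest the threshold were Ndufb8, Ndufs6 and Ndufc1. Ndufs6, a subunit of the peripheral arm, read 9.65, 9.70 and 9.84 with DMSO and 10.04, 10.00, 9.62 and 10.04 with celastrol. Of the celastrol arrays 3 were above all DMSO arrays and replicate 3 was below them, so the groups overlapped and the difference was 0.19 ± 0.11 (limma adjusted p = 0.690). Ndufb8 differed by -0.11 ± 0.056 (limma adjusted p = 0.673) and Ndufc1 by 0.12 ± 0.077 (limma adjusted p = 0.706). The Ndufc1 value was 0.046 without DMSO 6 h replicate 1, 0.194 without celastrol 6 h replicate 3 and 0.159 without both DMSO arrays that stood apart. A dimmer probe set of Ndufc1 gave 0.061 at 6 h.

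At 4 days they were Ndufa7, Ndufa8 and Ndufs1. Ndufs1, the large iron-sulfur subunit, read 10.72, 10.67 and 10.65 with DMSO and 10.77, 10.78 and 10.80 with celastrol. The celastrol arrays were all higher, with a difference of 0.10 ± 0.059 (limma adjusted p = 0.821). The accessory subunit Ndufa7 read 9.99, 10.04 and 10.09 against 9.78, 9.93 and 9.98, all lower with celastrol, with a difference of -0.14 ± 0.074 (limma adjusted p = 0.802). Ndufa8 differed by -0.10 ± 0.056 (limma adjusted p = 0.805).

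Complex II links the citric acid cycle to the respiratory chain: Sdha carries the flavin that oxidises succinate, Sdhb the iron-sulfur clusters, and Sdhc and Sdhd anchor both in the membrane. At 6 h 3 of the 4 genes were lower, and at 1 day and 4 days 2 were higher and 2 lower. Sdhd at 6 h read 10.07, 10.23 and 10.18 with DMSO and 10.03, 10.10, 10.05 and 9.90 with celastrol. The celastrol arrays lay lower on average, by 0.14 ± 0.062 on the log2 scale, and overlapped DMSO replicate 1 (limma adjusted p = 0.658, unadjusted 0.0407). Without both DMSO arrays that stood apart the 6 h difference was -0.127. At 1 day Sdhd differed by -0.053 ± 0.062 and at 4 days by 0.011 ± 0.067.

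Sdha and Sdhc stayed within narrower bounds. Sdha had 95% intervals of -0.10 to 0.055 at 6 h, -0.063 to 0.095 at 1 day and -0.065 to 0.10 at 4 days. Sdhc had intervals of -0.088 to 0.077, -0.12 to 0.045 and -0.12 to 0.061 at these times. Sdhb at 1 day read 10.94, 10.96 and 10.98 with DMSO and 10.94, 11.01, 11.27 and 10.93 with celastrol. Its difference of 0.078 ± 0.064 (limma adjusted p = 0.794) came mostly from celastrol replicate 3, and the other celastrol arrays lay within 0.1 of the DMSO arrays. The smallest adjusted p of an Sdh gene over the 3 times was 0.658.

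Complex III, which oxidises ubiquinol through cytochrome b and the Rieske iron-sulfur protein (Uqcrfs1) and is framed by the core proteins Uqcrc1 and Uqcrc2, had the largest median difference of the complexes at 1 day, without a gene past the threshold. At 1 day all 8 of its genes were on the higher side, with a median of 0.093, beside 0.0058 in complex I, -0.011 in complex II, 0.018 in complex IV and 0.027 in complex V. The differences ran from 0.0001 for the hinge protein Uqcrh to 0.13 for Uqcrfs1 and Uqcr11. A dimmer probe set of Uqcr11 gave 0.036. The array mean of the complex was 11.03 ± 0.024 (SD, n = 3) with DMSO and 11.11 ± 0.093 (SD, n = 4) with celastrol, and the celastrol arrays, from 10.99 to 11.22, spanned all DMSO arrays, from 11.01 to 11.06. Without celastrol 1 day replicate 3 the median fell from 0.093 to 0.027, so this array sets most of its size; without both DMSO arrays that stood apart it was 0.106.

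Uqcrfs1 was nearest the threshold at 1 day. It read 8.95, 9.06 and 8.95 with DMSO and 9.23, 9.02, 9.17 and 9.04 with celastrol. The groups overlapped, and the difference was 0.13 ± 0.065 (limma adjusted p = 0.621). At 4 days it read 9.01, 9.22 and 9.12 against 9.01, 9.01 and 8.97, with a difference of -0.12 ± 0.069 (limma adjusted p = 0.828). Celastrol was thus on the higher side at 1 day and on the lower side at 4 days, and at 6 h the difference was -0.081 ± 0.065.

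The small subunit Uqcr10 had the same pattern of signs at 1 day and 4 days. It read 9.94, 9.90 and 9.94 with DMSO and 10.06, 10.20, 10.05 and 9.88 with celastrol at 1 day, and 9.97, 10.09 and 9.92 against 9.73, 9.86 and 9.92 at 4 days. Its differences were 0.12 ± 0.079 and -0.15 ± 0.084, and the groups overlapped at both times. Over the complex, 3 genes were higher and 5 lower at 4 days (median -0.043). The array means did not overlap there, but only just: DMSO arrays ran from 11.09 to 11.14 and celastrol arrays from 11.05 to 11.09, with group means 0.046 apart against a pooled SD of 0.059. The core proteins moved little, with Uqcrc2 at -0.0006 ± 0.044, 0.018 ± 0.044 and 0.024 ± 0.047 over the 3 times.

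**Figure D2:**
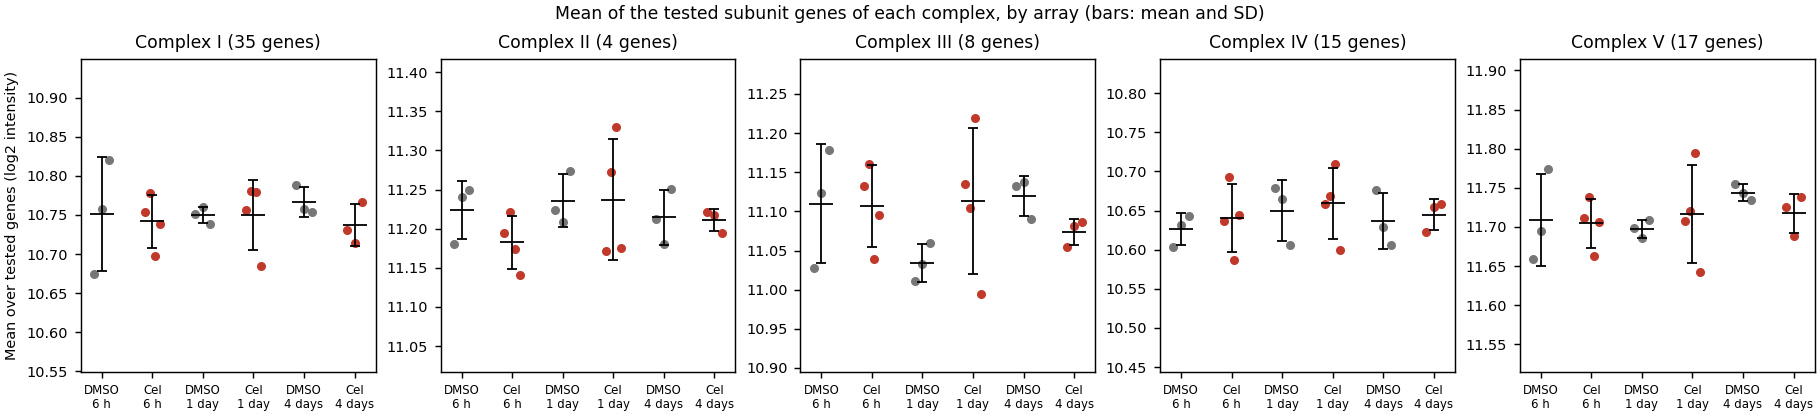
Mean log2 intensity over the tested genes of each complex, 1 point per array (grey DMSO, red celastrol), with the group mean and SD as bars. The y axes differ in level and have the same length. In complex III the DMSO arrays at 1 day lie between 11.01 and 11.06, within the span of the celastrol arrays.

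Complex IV reduces oxygen to water, and its nuclear subunits exist partly as tissue isoforms. Cox4i1 is the common form of subunit 4, and Cox4i2 is best known from lung and carotid body, where it is tied to oxygen sensing. Cox4i2 at 4 days read 8.02, 7.96 and 7.94 with DMSO and 8.05, 8.12 and 8.14 with celastrol. The celastrol arrays were all higher, by 0.13 ± 0.062, or 1.09-fold (limma adjusted p = 0.758, unadjusted 0.0485). At 6 h the difference was 0.094 ± 0.058 (0.036 without both DMSO arrays that stood apart) and at 1 day 0.0041 ± 0.058. All 8 pericyte and smooth muscle markers were above the limit, with a median difference of 0.041 at 4 days and arrays from 8.45 to 8.58 with DMSO and 8.51 to 8.65 with celastrol, and their part in the Cox4i2 values was not tested. Cox4i1 differed by 0.026 ± 0.059, -0.0073 ± 0.059 and 0.010 ± 0.064 over the 3 times.

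The isoforms known from heart and skeletal muscle, Cox6a2 and Cox7a1, were measured above the limit. Cox6a2 at 1 day read 8.96, 9.0 and 8.80 with DMSO and 8.87, 8.78, 8.71 and 8.85 with celastrol. The groups overlapped (difference -0.12 ± 0.064, limma adjusted p = 0.644), and without the DMSO array that stood apart, the lowest of its group, the difference was -0.182. Cox7a1 differed by -0.086 ± 0.050 at that time (limma adjusted p = 0.675). Of the 16 striated muscle markers 11 were above the limit, and their median difference at 1 day was -0.025, with 8 of 11 lower; their part was not tested. The common partners Cox6a1, Cox7a2 and Cox8a ran over all arrays from 11.59 to 12.03, 10.78 to 11.25 and 12.79 to 12.97, and none passed.

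Cox6b2 and Cox8c, known from testis, were close to the limit, over all arrays from 7.34 to 7.75 and 7.23 to 7.67. Cox8c at 4 days differed by 0.13 ± 0.096 (limma adjusted p = 0.889), and its interval of -0.07 to 0.34 was among the wider ones. Cox6b1, the common partner of Cox6b2, read 12.01, 11.94 and 11.99 with DMSO and 11.93, 11.88 and 11.91 with celastrol at 4 days, all lower (difference -0.073 ± 0.070, limma adjusted p = 0.933). Cox5a, another nuclear subunit, differed by 0.11 ± 0.059 at 1 day (limma adjusted p = 0.648), with 3 of 4 celastrol arrays above all DMSO arrays. For the complex as a whole the median was -0.0039 at 6 h, 0.018 at 1 day and -0.0068 at 4 days.

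Complex V has a catalytic head (Atp5a1, Atp5b, Atp5c1, Atp5d and Atp5e), a membrane ring of subunit c encoded by Atp5g1, Atp5g2 and Atp5g3, and a stator that includes Atp5pb, Atp5h and Atp5o. The catalytic beta subunit Atp5b had the smallest residual SD of any member, 0.031, and its 95% intervals over the 3 times stayed between -0.079 and 0.081. Atp5d, the delta subunit of the central stalk, at 4 days read 13.52, 13.56 and 13.62 with DMSO and 13.70, 13.63 and 13.65 with celastrol. The celastrol arrays were all higher, by 0.092 ± 0.042, or 1.07-fold (limma adjusted p = 0.748, unadjusted 0.0392).

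Most complex V genes were on the other side of 0 at 4 days, with 4 higher and 13 lower (median -0.028). The stator gene Atp5pb read 11.44, 11.45 and 11.38 with DMSO and 11.35, 11.32 and 11.37 with celastrol, all lower, with a difference of -0.076 ± 0.054 (limma adjusted p = 0.889). At 1 day it read 11.30, 11.36 and 11.36 against 11.50, 11.41, 11.51 and 11.34, with a difference of 0.10 ± 0.050 (limma adjusted p = 0.621). A dimmer probe set of Atp5pb gave smaller differences of the same signs, 0.046 at 1 day and -0.023 at 4 days. Atp5h differed by -0.093 ± 0.066 at 4 days (limma adjusted p = 0.889). At 6 h no member of the complex had an unadjusted p under 0.05, and the largest differences were 0.069 for Atp5j2 and -0.061 for Atp5g1. Without 1 array these ran from 0.031 (without DMSO replicate 1) to 0.106 (without celastrol replicate 4) and from -0.106 (without celastrol replicate 2) to -0.014 (without celastrol replicate 3).

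Averaging the 3 times made the intervals narrower without bringing a call. The median over the members was -0.0017, with 38 higher and 41 lower, beside -6.88e-05 for all genes, and all 79 intervals lay within 1.25-fold (98.8% of all genes). No member passed, where 0.573% of all genes did, and 3 had an unadjusted p under 0.05, where 8.78% did. These were Ndufb11 (-0.094 ± 0.034, limma adjusted p = 0.341), Ndufa7 (-0.10 ± 0.041, limma adjusted p = 0.451) and Cox4i2 (0.076 ± 0.034, limma adjusted p = 0.522). Without both DMSO arrays that stood apart the Cox4i2 value was 0.033.

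Whether the celastrol effect differed between times was tested as a difference of differences. No member passed in any of the 3 comparisons, where 0.00708% of all genes passed between 6 h and 1 day, 0.0142% between 6 h and 4 days, and 0.00708% between 1 day and 4 days. At an unadjusted p under 0.05 stood 2, 1 and 4 members, beside 10.3%, 7.68% and 2.47% of all genes. The 2 members between 6 h and 1 day were Ndufb8 (0.21 ± 0.080, limma adjusted p = 0.427) and Uqcrfs1 (0.21 ± 0.092, limma adjusted p = 0.464). The 4 between 1 day and 4 days were all lower at 4 days: Uqcrfs1 (-0.25 ± 0.095), Atp5pb (-0.18 ± 0.073), Uqcr10 (-0.27 ± 0.12) and Ndufc2 (-0.13), each with a limma adjusted p of 1. That makes 4 of 79, or 5.06%, above the 2.47% of all genes, with no call. The dimmer probe set of Atp5pb had celastrol minus DMSO differences closer together, 0.046 at 1 day and -0.023 at 4 days.

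Differences between times within a treatment reached larger sizes than the treatment differences, up to 0.39 for Uqcr11 between DMSO arrays of 1 day and 4 days. Among DMSO arrays no member passed, where 0.0991% of all genes did between 6 h and 1 day, 0.0283% between 6 h and 4 days, and 0% between 1 day and 4 days. At an unadjusted p under 0.05 stood 10, 8 and 9 members in these comparisons, beside 12.5%, 10.6% and 7.37% of all genes. Among celastrol arrays no member passed either, where 0.134%, 0.892% and 0.0425% of all genes did in the same order. At an unadjusted p under 0.05 stood 16, 7 and 9 members, beside 17.2%, 20.3% and 12.1%. The labels give no date or batch for the times, so time and any batch that follows it cannot be told apart.

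**Figure D3:**
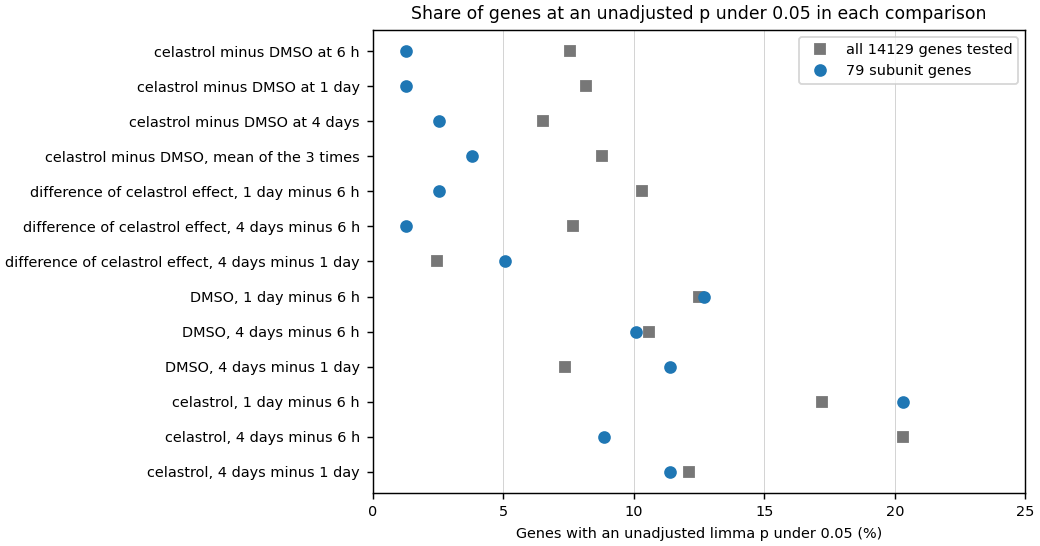
Share of genes (percent) at an unadjusted limma p under 0.05 in each of the 13 comparisons, for the 79 subunit genes (circles) and all 14129 genes tested (squares). In the treatment comparisons the circles lie at 1.27% to 2.53% by time, below the squares at 6.53% to 8.19%, and between times they lie on either side of the squares.

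Among DMSO arrays Ndufa9 came nearest to a call between times. It read 11.17, 11.18 and 11.17 in DMSO arrays at 6 h, 11.33, 11.41 and 11.37 at 1 day and 11.08, 11.16 and 11.14 at 4 days. All 1 day arrays lay above all arrays of both other times. The difference from 6 h to 1 day was 0.20 ± 0.043 (limma adjusted p = 0.0663) and that from 1 day to 4 days -0.24 ± 0.043 (limma adjusted p = 0.0802). The celastrol arrays read 11.25, 11.15, 11.13 and 11.13 at 6 h, 11.29, 11.32, 11.28 and 11.29 at 1 day and 11.23, 11.12 and 11.13 at 4 days. Here too the 1 day arrays were above all others, with differences of 0.13 ± 0.038 (limma adjusted p = 0.112) and -0.14 ± 0.041 (limma adjusted p = 0.219). The 1 day level was thus the highest of the 3 under both treatments.

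Ndufb8 and Ndufb6, both of the membrane arm, differed between 6 h and 1 day in opposite directions. Ndufb8 read 10.70, 10.80 and 10.80 in DMSO arrays at 6 h and 10.45, 10.56 and 10.49 at 1 day. The 1 day arrays were all lower, by 0.26 ± 0.060 on the log2 scale (limma adjusted p = 0.0701). Its celastrol arrays read 10.71, 10.56, 10.81 and 10.54 and 10.61, 10.59, 10.61 and 10.58, which overlapped (-0.056 ± 0.052). Ndufb6 read 11.32, 11.32, 11.25 and 11.30 in celastrol arrays at 6 h and 11.62, 11.46, 11.68 and 11.36 at 1 day, all higher at 1 day (0.23 ± 0.059, limma adjusted p = 0.0936). Without celastrol 1 day replicate 4 the difference was 0.289 and passed (limma adjusted p = 0.0387). In DMSO arrays Ndufb6 ran from 11.28 to 11.50 at 6 h and from 11.51 to 11.57 at 1 day, also all higher at 1 day. The difference of differences for Ndufb6 was 0.053 ± 0.089 (limma adjusted p = 0.845).

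Uqcrh, the hinge protein of complex III, was the member nearest a call among celastrol arrays. It read 11.95, 11.94, 12.04 and 11.90 at 6 h, 11.89, 11.84, 11.78 and 11.83 at 1 day and 11.72, 11.75 and 11.80 at 4 days. The 4 day arrays were all below the 6 h arrays, by 0.20 ± 0.052 on the log2 scale (limma adjusted p = 0.0603). In DMSO arrays it read 11.88, 11.92 and 11.94 at 6 h and 11.92, 11.86 and 11.78 at 4 days, which overlapped. By symbol, RefSeq lists 2 pseudogene copies of Uqcrh, and copies of 8 other members, so probes may share signal with such a copy. Only copies named after their gene were counted, so other members may have copies too.

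**Figure D4:**
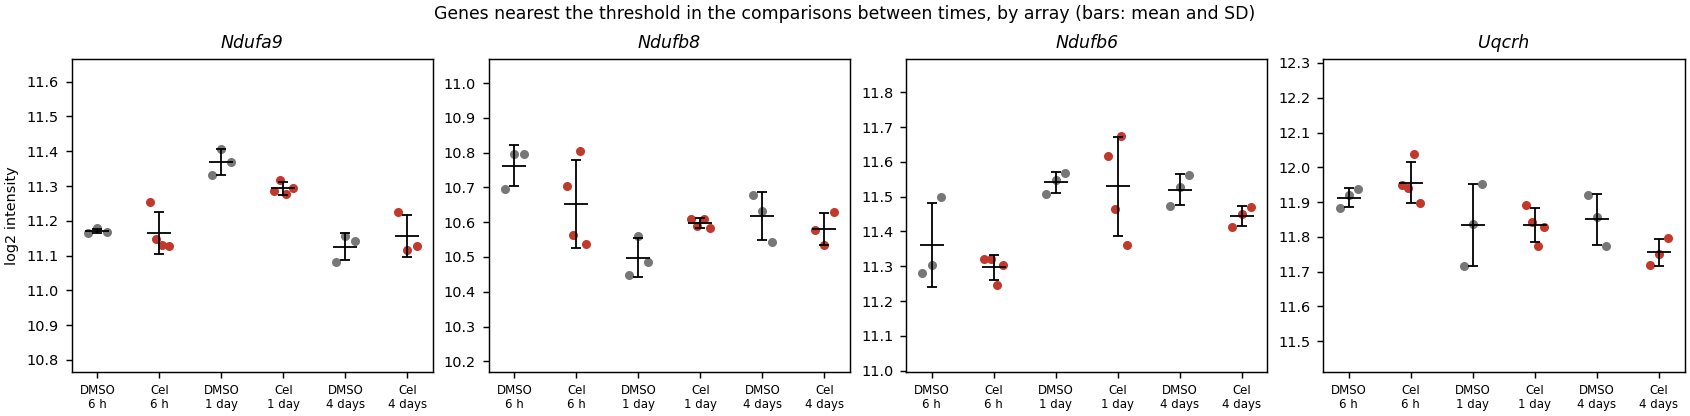
Log2 intensity of Ndufa9, Ndufb8, Ndufb6 and Uqcrh, 1 point per array (grey DMSO, red celastrol), with the group mean and SD as bars. Ndufa9 is highest at 1 day under both treatments, at 11.33 to 11.41 with DMSO and 11.28 to 11.32 with celastrol.

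Within a group, the share of members above the group mean varied more from array to array than that of all genes. In DMSO 6 h replicate 1, 15 of 79 members (19.0%) were above their group mean, and in replicate 3 of that group 65 (82.3%). At 1 day, 12 members (15.2%) were above it in celastrol replicate 4 and 58 (73.4%) in replicate 3. Over all genes the share ran from 41.1% to 60.8% across the 20 arrays. A share over 79 genes can vary more than one over 14129, and no such share was taken for a set of like size. The wider range is therefore not read as a trait of the subunits. The members' array mean ran from 10.93 in celastrol 1 day replicate 4 to 11.06 in celastrol 1 day replicate 3, so both ends of the range lay in 1 group.

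Ribosomal protein genes, short abundant transcripts of another complex, are set beside the subunits here. They were chosen by symbol, so the cytosolic list also held the pseudogene Rpl14-ps1 and the ribosomal-like gene Rps27l. The array mean of 58 cytosolic ribosomal protein genes differed between celastrol and DMSO by 0.011 at 6 h, 0.037 at 1 day and -0.024 at 4 days, against -0.0047, 0.014 and -0.022 for the subunits, so the signs were opposite at 6 h. Celastrol and DMSO arrays overlapped in each case. Mitochondrial ribosomal protein genes differed by -0.019, 0.037 and -0.014. The pooled within-group SD of the array mean was 0.038 for the subunits, 0.0381 for cytosolic and 0.0402 for mitochondrial ribosomal protein genes. In the celastrol 1 day group the cytosolic ribosomal mean was likewise lowest in replicate 4 (11.024) and highest in replicate 3 (11.135). The spread between arrays was thus not particular to the subunits.

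**Figure D5:**
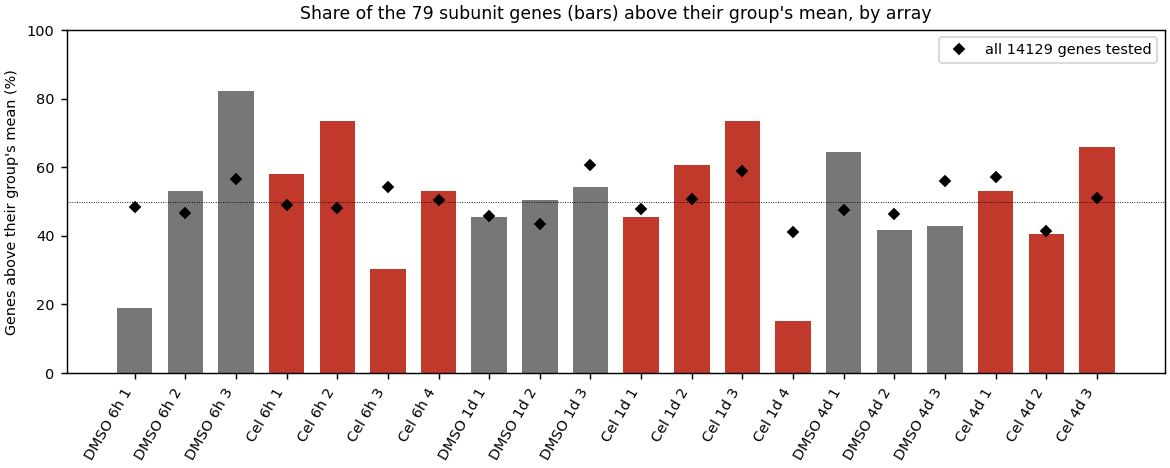
Share of the 79 subunit genes (percent, bars) above their own group's mean in each array, grey for DMSO and red for celastrol, with the share of all 14129 genes tested as diamonds. Bars run from 15.2% to 82.3% and diamonds from 41.1% to 60.8%.

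The spread of single members between arrays was close to that of other genes. The median residual SD was 0.079 for members and 0.080 for all genes, with 0.093 in complex III and 0.062 in complex II. It was highest for Uqcr11 (0.173), Ndufa1 (0.169) and Ndufs6 (0.165), and lowest for Atp5b (0.031), Sdha (0.036) and Ndufv2 (0.038). Where a gene had several probe sets, as 16 tested members did, their treatment differences spanned a median of 0.026 at 6 h, 0.0375 at 1 day and 0.032 at 4 days. The median absolute treatment difference of all tested members was 0.028, 0.0423 and 0.0374 at these times. Probe sets of a gene thus disagreed by about as much as the treatment differences themselves. The differences of a gene's probe sets had both signs for 7 of the 16 at 6 h, 2 at 1 day and 2 at 4 days, and lay at most 0.13 apart at 6 h (Cox7a2l), 0.095 at 1 day and 0.073 at 4 days (both Cox7b).

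Genes that build and supply the complexes gave no call either. Of 39 tested assembly factors, 10 were higher and 29 lower at 6 h (median -0.035), 29 and 10 at 1 day (0.019), and 24 and 15 at 4 days (0.017), and none passed at any time. At an unadjusted p under 0.05 stood 6 of the 39 (15.4%) at 6 h, where 7.55% of all genes did, and 1 (2.56%) at each later time. The assembly factor for the ATP synthase head, Atpaf1, differed by -0.17 ± 0.059 at 6 h (limma adjusted p = 0.603), and Ndufaf3 of complex I by -0.12 ± 0.048 (limma adjusted p = 0.632). At 1 day Coa3, a complex IV factor, differed by 0.18 ± 0.069 (limma adjusted p = 0.450) and Ndufaf7 by 0.076 ± 0.046. At 4 days Tmem70, an ATP synthase factor, differed by -0.13 ± 0.058 and Ndufaf4 by -0.13 ± 0.065.

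Among 21 tested regulators of mitochondrial biogenesis none passed, and the median was -0.0099, 0.0083 and 0.019 over the 3 times. Ppara, a nuclear receptor for fatty acids, was nearest at 1 day (0.26 ± 0.061, limma adjusted p = 0.0825), with Tfb2m, a mitochondrial transcription factor, at 0.14 ± 0.060. Esrrg, an orphan receptor that drives mitochondrial genes, differed by -0.24 ± 0.072 at 4 days (limma adjusted p = 0.421) and Polg2 of the mitochondrial DNA polymerase by 0.18 ± 0.083. At 6 h the nearest were Hif1a (-0.094 ± 0.043) and Gabpa (-0.12 ± 0.058), which encodes the DNA-binding subunit of GABP.

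Of 16 tested citric acid cycle genes none passed, and Dld, the dihydrolipoamide dehydrogenase shared by several complexes, differed by -0.19 ± 0.062 at 6 h (limma adjusted p = 0.582) and -0.095 ± 0.066 at 4 days. Idh3a of the cycle's isocitrate dehydrogenase differed by -0.097 ± 0.057 at 6 h and 0.12 ± 0.057 at 1 day, Suclg1 by 0.12 ± 0.051 at 1 day and Suclg2 by 0.10 ± 0.079 at 4 days. Of 15 tested electron carrier genes none passed. Coq2, of ubiquinone synthesis, differed by -0.13 ± 0.050 at 6 h, Coq9 by -0.13 ± 0.056 and Etfdh by 0.075 ± 0.057 at 1 day, and Pdss2 by 0.13 ± 0.063 at 4 days. Ndufab1, the acyl carrier protein that also sits in complex I, differed by -0.082 ± 0.039 at 6 h and -0.063 ± 0.042 at 4 days.

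Of 77 mitochondrial ribosomal protein genes 53 were higher and 24 lower at 1 day (median 0.032), with none past the threshold. The nearest were Mrps5 (-0.16 ± 0.046) and Mrps35 (-0.21 ± 0.079) at 6 h, Mrpl27 (0.12 ± 0.052) and Mrpl22 (0.22 ± 0.099) at 1 day, and Mrpl18 (-0.18 ± 0.076) and Mrpl14 (-0.15 ± 0.068) at 4 days. Of 10 tested uncoupling and nucleotide exchange genes none passed. The adenine nucleotide carrier Slc25a5 differed by -0.087 ± 0.039 and the outer membrane channel Vdac1 by -0.052 ± 0.044 at 6 h, Ucp3 by 0.14 ± 0.081 and Slc25a14 by 0.080 ± 0.056 at 1 day, and Ucp3 by 0.16 ± 0.086 and Slc25a27 by 0.078 ± 0.043 at 4 days. Of 58 genes with cytosolic ribosomal protein symbols, 43 were higher and 15 lower at 1 day (median 0.037) and 20 and 38 at 4 days (-0.017), with none past the threshold.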

How the data were processed

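The deposited table holds log2 intensities for 23492 probe sets and 20 arrays. RMA is named in the submitters' processing notes (background correction, quantile normalization, probe set summary); its version is not given in the sources used here. Probe sets were named from the platform annotation: 20228 had 1 symbol, 1399 several and 1865 none. 6 probe sets that carried a member's symbol and another symbol were not used. Genes under the 25th percentile of mean intensity (log2 7.04) were left out, and 14129 were tested.

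The model was fitted by limma 3.58.1 (R 4.3.3) with 1 mean for each of the 6 groups, eBayes (14 residual and 4.92 prior degrees of freedom) and two-sided p-values, Benjamini-Hochberg adjusted over the 14129 genes at a threshold of 0.05. The procedure was also run on simulated data with independent noise for each gene. That setting lacks the shifts shared by many genes of an array, so it does not bear on them. Arrays have no read depth; their number limits the precision. Array medians lay between 8.60 and 8.65. Members, lists and motifs were chosen with earlier results of these data known, so no list was tested as a list. Named genes were the 3 with the smallest p per complex at each time (per comparison otherwise), the Sdh genes, the tissue isoforms with their partners, and the 2 nearest genes of each other pathway list. Replicate numbers did not pair arrays. Alternatives changed the filter, scaling, probe set, array weights, intensity trend and replicate block, and left out arrays. Promoter windows came from RefSeq (GRCm38.p6).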

Additional observations from a re-analysis of the deposited data

Results flagged for a closer look

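In 3 of 98 groups of 4 arrays examined, 1 array of a member stood far from the other 3, where chance flags about 1 in 20 groups. Only the celastrol groups at 6 h and 1 day had 4 arrays, so no DMSO array was examined in this way. The flagged values therefore say nothing about celastrol against DMSO. All 3 lay in the 6 h group. Ndufs6 read 9.62 in replicate 3 and 10.0 to 10.04 in the others. Atp5g3 read 12.4 in replicate 3 against 12.31 to 12.32, and Ndufa9 read 11.25 in replicate 1 against 11.13 to 11.15. No difference of the celastrol effect between times passed for any member (smallest limma adjusted p = 0.427).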

How the results depend on the processing

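With 30 other settings, 20 of them leaving out 1 array, 12 of 390 recounts of the members called were above 0 and the smallest adjusted p was 0.00926. All 12 concerned differences between times, and in the treatment comparisons and their differences every recount was 0. Leaving out both DMSO arrays that stood apart gave 1 call between celastrol arrays at 6 h and 1 day (Ndufb6) and 1 between 6 h and 4 days (Uqcrh). The latter count was also 1 with array weights, with genes under the 50th percentile left out, or with an intensity trend. Between DMSO arrays at 6 h and 1 day the count was 1 after repeated quantile normalization (Ndufa9), and 2 with the 50th percentile or the trend (Ndufa9 and Ndufb8). Between 1 day and 4 days it was 3 with array weights (Ndufa9, Atp5g3 and Cox7a1) and 1 with the trend (Ndufa9). The cause was not tested. Leaving out 1 array gave 0 to 1 calls in both celastrol counts, with 1 call without celastrol 1 day replicate 4 (Ndufb6) and without DMSO 1 day replicate 3 (Uqcrh). Of 45 named treatment differences at a single time, 32 moved by over 1.5 times without some 1 array and 4 turned sign, and none passed (smallest limma adjusted p 0.204). The complex III median at 1 day then ran from 0.0273 to 0.135, and the complex V median at 6 h from -0.026 to 0.0392, the latter without DMSO 6 h replicate 3, alone or with both arrays that stood apart (0.0392).

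No replicate number paired the arrays (r of same-numbered arrays -0.288 to 0.287, 1 of 9 over 0.1), and with a replicate block the counts of members called stayed at 0. Signs turned for differences near 0. Sdhc at 6 h was 0.004 with arrays centred, 0.02 after quantile normalization and 0.008 with the replicate block, and -0.016 to 0.006 without 1 array. Uqcrc1 at 6 h was 0.007 with the replicate block and -0.053 to 0.005 without 1 array. Sdhd at 1 day was 0.004 with array weights. Without 1 array, Sdha at 4 days ran from -0.007 to 0.042 and Sdhb from -0.043 to 0.011. Rescaling moved the median of all genes by at most 0.0213.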
